A study of Mus musculus with 12 samples.

Results

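The genes described here are 10 genes of the MHC class I pathway, H2-K1, H2-D1, B2m, Tap1, Tap2, Tapbp, Psmb8, Psmb9, Psme1 and Nlrc5. They were chosen by name, with earlier results of these data known, and were matched through GENCODE M21 symbols to 10 of the 47729 gene identifiers counted in mouse liver. All 10 passed the filter on low counts. MHC class I molecules show peptides from inside the cell to CD8+ T cells and natural killer cells. The proteasome cuts proteins into peptides, the TAP transporter carries the peptides into the endoplasmic reticulum, tapasin helps to load them onto a heavy chain paired with beta-2 microglobulin, and the complete molecule moves to the cell surface. Interferons are known to raise most of these genes, through IRF and STAT factors and through NLRC5, the transactivator of class I genes. Hepatocytes carry class I molecules at a lower level than immune cells do.

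RNA was sequenced from whole liver of 12 male C57BL/6 mice at week 9, 4 in each of 3 groups. Naive_vehicle mice were healthy wild-type mice given vehicle. STAM_vehicle mice received streptozotocin on day 2 of life and a high-fat diet from week 4, which together model diabetes with steatohepatitis, and were given vehicle. STAM_treated mice were STAM mice given 10 mg/kg I-BET151, an inhibitor of the bromodomains of the BET proteins, by mouth once a day from week 6 to week 9. The vehicle was methylcellulose, whereas I-BET151 was suspended in hydroxypropyl methylcellulose with Tween 80, so compound and carrier cannot be told apart. STAM differs from naive in both streptozotocin and diet. Whole liver holds many cell types, so more cells of a type and more RNA per cell cannot be told apart in these values.

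The total count on genes was between 34711229 and 53365596 per mouse. STAM_treated mouse 3 stood apart. Its TMM factor, which corrects for RNA composition, was 1.61 against 0.770 to 1.11 in the other 11 mice, and its share of mitochondrial counts was 2.71% against 4.51% to 7.30%. It lay outside the range of the other 3 STAM_treated mice for 81.6% of the 16823 genes tested, while each of those mice lay outside the range of the rest of its group for 32.2% to 53.3%. For the class I genes it lay outside for 10 of 10, below for 6 and above for 4. The study dropped 1 treated sample over low gene counts and did not say which. Mouse 3 had the lowest total of all mice, 34711229, but the most genes with a count, 24304. Treated mouse 2 had a total of 35171038 and the fewest such genes of its group, 22293. Which mouse was dropped cannot be told. Because mouse 3 stood apart, differences that include STAM_treated mice are given with and without it where the text names a gene from them. Brd2 is given by mouse instead. Levels are CPM, counts scaled to a common TMM-corrected library size, given with the SD of the 4 mice, and differences are log2 fold changes from edgeR's quasi-likelihood test on all 12 mice with Benjamini-Hochberg adjusted p over all genes tested. A gene was called at an adjusted p of at most 0.05 against naive mice and of at most 0.1 for STAM_treated against STAM_vehicle.

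Per kb of exon the 10 genes spanned a wide range of levels. In Naive_vehicle livers B2m stood highest at 1468 ± 94.0 CPM per kb, followed by H2-K1 at 395 ± 16.7 and H2-D1 at 193 ± 9.57. Psme1 (27.4 ± 0.604 CPM per kb) and Tapbp (17.4 ± 1.13) came next. Nlrc5 (4.64 ± 0.526), Tap1 (4.25 ± 0.476) and Tap2 (3.63 ± 0.257) lay close together, and Psmb8 (2.71 ± 0.262) and Psmb9 (2.10 ± 0.109) were lowest. The naive mice kept each neighbour in this order apart, with 2 exceptions. Nlrc5, at 4.15 to 5.13, overlapped Tap1, at 3.81 to 4.91, and Tap1 overlapped Tap2, at 3.31 to 3.87 CPM per kb. Heavy and light chains had higher mRNA levels per kb than the transporter and the inducible proteasome subunits.

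**Figure D1:**
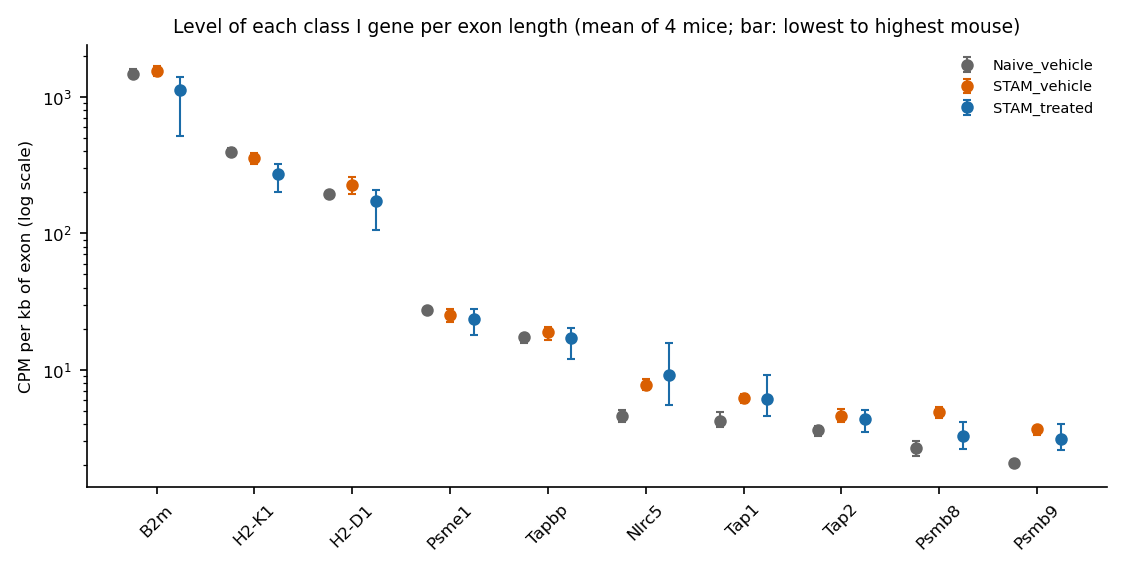
Level of each class I gene in CPM per kb of exon on a log scale, as the mean of 4 mice with a bar from the lowest to the highest mouse, for Naive_vehicle, STAM_vehicle and STAM_treated. B2m, H2-K1 and H2-D1 lie between 106 and 1688 in every mouse, while Nlrc5, Tap1, Tap2, Psmb8 and Psmb9 lie between 1.94 and 15.7.

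Of the 10 genes, 7 lie on chromosome 17 of GRCm38 within 1352 kb, from the start of Tapbp to the end of H2-D1. The inducible proteasome and transporter genes form a tight group there, with Psmb9 (34181987 to 34187764, minus strand), Tap1 (34187553 to 34197225, plus strand), Psmb8 (34197721 to 34201454, plus strand) and Tap2 (34203527 to 34216321, plus strand). Tapbp runs from 33915899 to 33929292 and H2-K1 from 33996017 to 34000347, and H2-D1 lies at a distance, from 35262730 to 35267499. B2m is on chromosome 2 (122147686 to 122153083), Psme1 on chromosome 14 (55578123 to 55581529) and Nlrc5 on chromosome 8 (94434356 to 94527272). Brd2, which encodes a BET protein and thus a target of I-BET151, also lies between these genes on chromosome 17, from 34112023 to 34122634. It was not called in any comparison, with a log2 fold change of -0.12 (SE 0.24, adjusted p = 0.817) for STAM_vehicle against Naive_vehicle and 0.16 (SE 0.24, adjusted p = 0.911) for STAM_treated against STAM_vehicle. Its CPM was 147, 154, 136 and 150 in the STAM_vehicle mice and 140, 113, 280 and 123 in the STAM_treated mice. Mouse 3, at 280, was the only treated mouse above the STAM_vehicle mean of 147.

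Promoter sequences are shown for the 2 heavy chains, for B2m and for the pair Tap1 and Psmb9, because these genes share or resemble each other in control sequence and can be set beside their levels. They come from RefSeq on GRCm38.p6, which held a window from 250 bases before to 50 after the start for 8 of the 10 genes. No window was at hand for Tap2 and Nlrc5. The H2-K1 stretch is chr17:34000403-34000462 on the minus strand, the H2-D1 stretch chr17:35262919-35262978 on the plus strand and the B2m stretch chr2:122147532-122147591 on the plus strand. RefSeq starts differ from the gene positions given above, which are those of GENCODE M21. The H2-D1 stretch ends 116 bases before the RefSeq start but lies within the gene as placed above. Capitals mark matches of the kappaB consensus, first in the heavy chains, and of the interferon-type motif TTTCNNTT, which comes first in B2m. In B2m both matches read on the other strand.
H2-K1: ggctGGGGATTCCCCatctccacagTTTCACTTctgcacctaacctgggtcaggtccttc
H2-D1: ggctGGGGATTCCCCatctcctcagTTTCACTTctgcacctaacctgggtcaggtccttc
B2m: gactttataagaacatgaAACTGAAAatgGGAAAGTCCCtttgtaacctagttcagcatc

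The H2-K1 and H2-D1 stretches are identical at 59 of 60 bases. The kappaB consensus, searched on both strands like the others, was present for H2-K1, H2-D1 and B2m and in 4.51% of all 32841 windows, and TTTCNNTT for H2-K1, H2-D1, B2m and Psme1 and in 23.9% of windows. In B2m the 2 matches lie in the opposite order as printed and do not overlap. Read on the other strand, where both match, they come in the order of the heavy chains. The STAT-type motif TTCNNNGAA was found for Psmb8 and in 8.3% of windows. TGACG, the core of a cAMP-response element, was found for 5 of the 8 genes against 20.8% of windows, and CCAAT for 6 of the 8 against 37.4%. The windows of Tap1 and Psmb9 overlap and their TGACG and CCAAT matches are the same sites, so the pair does not give separate matches. These motifs were picked after the sequences had been seen, and a match describes letters, not a bound site.

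Tap1 and Psmb9 are read in opposite directions from starts that lie 225 bases apart in RefSeq. The stretch between these starts, chr17:34187331-34187555 in the direction of Tap1, is shown because both genes begin at its ends in RefSeq. In the GENCODE M21 positions given above it lies within Psmb9. Capitals mark CCAAT and TGACG.
Tap1 and Psmb9: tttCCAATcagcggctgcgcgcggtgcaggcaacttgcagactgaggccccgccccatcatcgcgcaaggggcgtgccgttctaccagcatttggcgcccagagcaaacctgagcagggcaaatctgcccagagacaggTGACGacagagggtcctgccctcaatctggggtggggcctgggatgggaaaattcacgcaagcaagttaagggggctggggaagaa

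The comparison of STAM_vehicle with Naive_vehicle asks which class I genes differ between diseased and healthy liver when both were given vehicle. The inducible proteasome subunits Psmb8 and Psmb9 rose, and they were the 2 of 10 genes called, both higher. Over all genes 7.1% were called in this comparison, 5.72% higher and 1.38% lower. The median log2 fold change of the 10 genes was 0.29, against 0.0089 over all genes tested. For 5 of the 10 genes the 4 STAM_vehicle mice all lay above the 4 Naive_vehicle mice, as they did for 14.2% of all genes, namely Psmb8, Psmb9, Nlrc5, Tap1 and Tap2. The 5 remaining genes, among them both heavy chains and B2m, overlapped between the groups.

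Psmb8 encodes the inducible proteasome subunit LMP7. Its CPM was 10.1, 7.97, 9.24 and 9.23 in the Naive_vehicle mice, 14.9, 16.5, 18.2 and 16.8 in the STAM_vehicle mice and 14.1, 10.3, 8.95 and 11.2 in the STAM_treated mice. Every STAM_vehicle mouse was above every naive mouse and above every treated mouse. From naive to STAM_vehicle it rose by 0.86 on the log2 scale (SE 0.15, adjusted p = 0.00362).

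Psmb9 encodes LMP2, the inducible subunit that takes the place of Psmb6. Its CPM was 7.87, 7.71, 7.09 and 7.99 in Naive_vehicle, 13.4, 12.3, 13.9 and 14.3 in STAM_vehicle and 10.8, 10.6, 14.8 and 9.54 in STAM_treated mice. Naive mice were lowest throughout, and treated mouse 3, at 14.8, stood above the rest of its group and above all STAM_vehicle mice. Psmb9 rose by 0.81 (SE 0.14, adjusted p = 0.00415) from naive to STAM_vehicle. Psmb8 and Psmb9 were both called whichever of the 12 mice was left out, but not with the sequencing lane as a covariate, at 0.72 (SE 0.26, adjusted p = 0.523) and 0.70 (SE 0.22, adjusted p = 0.419).

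Nlrc5, the transactivator, had 43.6, 35.2, 35.9 and 43.0 CPM in Naive_vehicle, 72.9, 60.8, 62.2 and 65.9 in STAM_vehicle and 64.9, 47.0, 134 and 67.0 in STAM_treated mice. STAM_vehicle and treated mice all exceeded the naive mice, and mouse 3 stood above the other 11 mice. Its difference of 0.73 (SE 0.25) between STAM_vehicle and naive mice missed the threshold with all 12 mice (adjusted p = 0.0924). It passed without STAM_treated mouse 3 (log2 fold change 0.71, SE 0.12, adjusted p = 0.00225). That mouse enters this comparison only through the filter on low counts, the TMM factors and the shared estimate of spread. Nlrc5 also passed without treated mouse 2 (adjusted p = 0.0449) and in DESeq2 with all 12 mice (adjusted p = 0.0443). DESeq2 called 3 of the 10 genes, Psmb8, Psmb9 and Nlrc5, and 9.95% of all genes.

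Tap1, which forms the peptide transporter with Tap2, had 26.9, 23.1, 22.1 and 20.8 CPM in Naive_vehicle, 36.8, 35.3, 33.1 and 31.5 in STAM_vehicle and 29.3, 25.2, 50.4 and 30.03 in STAM_treated mice. Tap2 had 14.6, 12.5, 14.4 and 13.4 in Naive_vehicle, 15.8, 19.6, 17.4 and 16.9 in STAM_vehicle and 16.3, 13.2, 19.2 and 17.9 in STAM_treated mice. STAM_vehicle was above naive in every mouse for both genes. The difference was 0.55 (SE 0.18, adjusted p = 0.0869) for Tap1 and 0.34 (SE 0.13, adjusted p = 0.131) for Tap2, neither called. Without mouse 3 both were called, at 0.53 (SE 0.092, adjusted p = 0.00261) and 0.32 (SE 0.11, adjusted p = 0.0468). The class I genes called higher in this comparison thus numbered 5 of 10 without mouse 3, in a fit that called 22.3% of all genes.

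STAM_vehicle and Naive_vehicle mice overlapped for both heavy chains and for B2m. H2-K1 had 1145, 1136, 1234 and 1128 CPM in Naive_vehicle, 945, 1135, 1033 and 1073 in STAM_vehicle and 805, 952, 590 and 851 in STAM_treated mice. H2-D1 had 530, 471, 499 and 489 in Naive_vehicle, 502, 577, 663 and 601 in STAM_vehicle and 459, 533, 272 and 502 in STAM_treated mice. B2m, the light chain that every class I molecule needs, had 1197, 1250, 1379 and 1223 in Naive_vehicle, 1214, 1295, 1451 and 1369 in STAM_vehicle and 1148, 1200, 440 and 1061 in STAM_treated mice. Mouse 3 was the lowest of all 12 mice for each of these 3 genes. For STAM_vehicle against naive the log2 fold changes were -0.15 (SE 0.18, adjusted p = 0.678) for H2-K1, 0.24 (SE 0.20, adjusted p = 0.531) for H2-D1 and 0.078 (SE 0.26, adjusted p = 0.894) for B2m. H2-K1 and H2-D1, with their near-identical control stretch, had fitted differences of opposite sign, neither called by edgeR. Limma-voom called H2-D1 higher (adjusted p = 0.0489) and did not call H2-K1 (adjusted p = 0.340).

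Tapbp encodes tapasin, which holds the heavy chain at the transporter. It had 66.4, 65.6, 63.4 and 57.4 CPM in Naive_vehicle, 60.3, 69.1, 69.8 and 74.4 in STAM_vehicle and 73.0, 62.8, 43.7 and 67.3 in STAM_treated mice. Psme1, the alpha subunit of the proteasome activator PA28, had 60.7, 61.0, 61.5 and 58.5 in Naive_vehicle, 49.8, 52.1, 58.0 and 61.6 in STAM_vehicle and 61.4, 54.6, 39.6 and 52.2 in STAM_treated mice. The groups overlapped for both genes. Their log2 fold changes for STAM_vehicle against naive were 0.11 (SE 0.15, adjusted p = 0.697) and -0.13 (SE 0.13, adjusted p = 0.623).

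**Figure D2:**
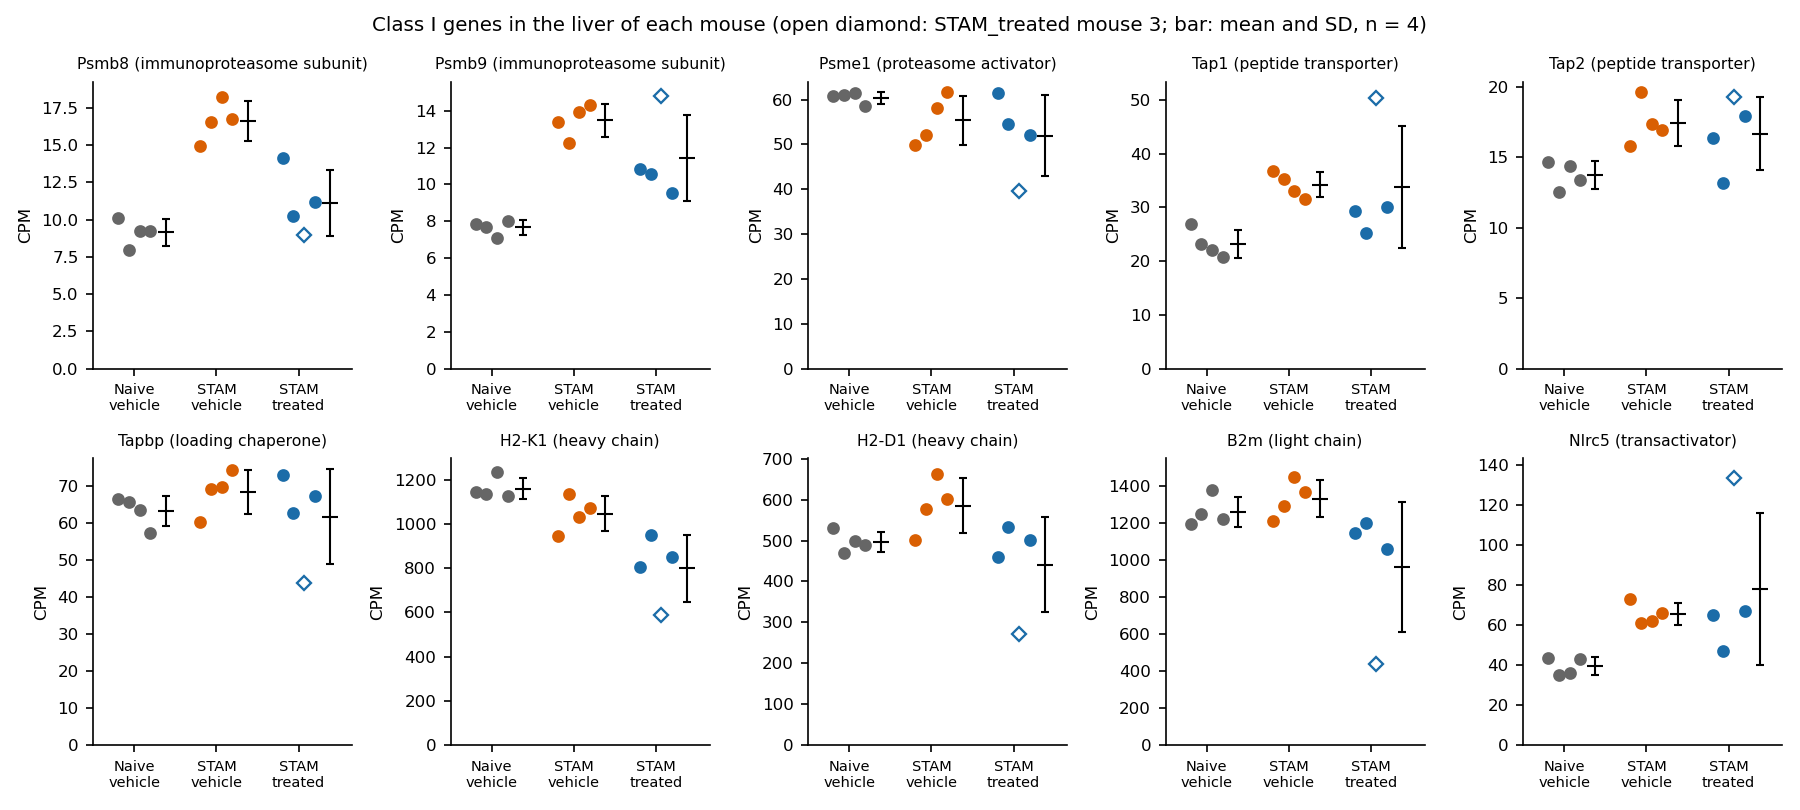
CPM of the 10 class I genes in each of the 12 mice, by group, with the mean and SD of 4 mice beside the points and STAM_treated mouse 3 as an open diamond. Psmb8, Psmb9, Nlrc5, Tap1 and Tap2 are higher in all STAM_vehicle than in all Naive_vehicle mice, and mouse 3 is the lowest treated mouse for 6 genes and the highest for 4.

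The comparison of STAM_treated with STAM_vehicle asks which class I genes differ after I-BET151. None of the 10 genes was called with all 12 mice, against 0.351% of all genes. At an unadjusted p under 0.05 there was 1, Psmb8, against 1460 of all 16823 genes, and DESeq2, which called 1.5% of all genes, called 1, also Psmb8. The fitted difference was negative for 9 of the 10 genes, with a median of -0.19 against 0.024 over all genes. Psmb8 and B2m were lower in all 4 treated than in all 4 STAM_vehicle mice, which held for 2.63% of all genes, and none was higher in all 4, against 2.41%.

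Without mouse 3 the inducible subunits were called lower in I-BET151 livers, 2 of 10 genes in a fit that called 2.38% of all genes. Psmb8 fell by 0.47 (SE 0.12, adjusted p = 0.0977) and Psmb9 fell by 0.38 (SE 0.096, adjusted p = 0.0933). Both lie close to the threshold of 0.1. With mouse 3 the values were -0.58 (SE 0.14, adjusted p = 0.169) and -0.24 (SE 0.14, adjusted p = 0.681). DESeq2 without mouse 3, a fit added after seeing the data, called both (adjusted p = 0.022 and 0.0138), along with 8.32% of all genes. DESeq2 with all 12 mice called Psmb8 (adjusted p = 0.0553) and not Psmb9 (adjusted p = 0.639). Limma-voom with all 12 mice called both (adjusted p = 0.0362 and 0.0514), along with 7.16% of all genes. In 3 treated mice against 4 STAM_vehicle mice, 4 of the 10 genes were lower with no overlap, against 8.35% of all genes, namely Psmb8, Psmb9, Tap1 and B2m, and none was higher, against 7.47%.

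Nlrc5, Tap1 and Tap2 showed how far mouse 3 sets the treated values. For Nlrc5 the log2 fold change was 0.26 (SE 0.25, adjusted p = 0.837) with mouse 3 and -0.12 (SE 0.13, adjusted p = 0.653) without it. For Tap1 it was -0.017 (SE 0.18, adjusted p = 0.991) with and -0.27 (SE 0.10, adjusted p = 0.197) without it. For Tap2 it was -0.064 (SE 0.13, adjusted p = 0.943) with and -0.13 (SE 0.11, adjusted p = 0.592) without it. In mouse 3 these 3 genes and Psmb9 were above the mean of the other treated mice, by 2.24-fold for Nlrc5 and 1.79-fold for Tap1, while B2m reached 0.387 of that mean.

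Both heavy chains and B2m had lower fitted levels after I-BET151 that missed the threshold in edgeR. For H2-K1 the difference from STAM_vehicle was -0.39 (SE 0.18, adjusted p = 0.583), for H2-D1 -0.41 (SE 0.20, adjusted p = 0.610) and for B2m -0.47 (SE 0.27, adjusted p = 0.669). Without mouse 3 these shrank to -0.26 (SE 0.12), -0.23 (SE 0.12) and -0.22 (SE 0.12), with adjusted p of 0.278, 0.344 and 0.367. DESeq2 without mouse 3 called H2-K1 lower (-0.25, adjusted p = 0.0943), close to the threshold of 0.1, along with 8.32% of all genes. It called neither H2-D1 (adjusted p = 0.238) nor B2m (adjusted p = 0.174). Tapbp and Psme1 were near 0, at -0.0057 (SE 0.094) and 0.026 (SE 0.092) without mouse 3 and at -0.15 (SE 0.15) and -0.093 (SE 0.13) with it.

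The comparison of STAM_treated with Naive_vehicle shows how far treated livers were from healthy ones. It shares its mice with both comparisons above. Psmb9 and Nlrc5 were called higher, 2 of 10 genes, against 15.1% of all genes called and 9.88% called higher. None was called lower, against 5.25%. These 2 genes were also the ones higher in all 4 treated than in all 4 naive mice, as were 10.9% of all genes. Psmb9 was higher by 0.58 (SE 0.14, adjusted p = 0.0160) and Nlrc5 by 0.99 (SE 0.25, adjusted p = 0.0183), and both were still called without mouse 3, at 0.42 (SE 0.097, adjusted p = 0.0111) and 0.58 (SE 0.13, adjusted p = 0.00782). Neither was called without Naive_vehicle mouse 3 (adjusted p = 0.0566 for Psmb9 and 0.0596 for Nlrc5), and Nlrc5 was not called without Naive_vehicle mouse 2 (adjusted p = 0.0588). H2-K1 was lower in every treated than in every naive mouse, as were 8.85% of all genes. Its difference of -0.54 (SE 0.18) was not called with all 12 mice (adjusted p = 0.0623). It was called without treated mouse 2 (-0.63, adjusted p = 0.0362) and without treated mouse 3, at -0.43 (SE 0.12, adjusted p = 0.0240), in a fit that called 20.4% of all genes. DESeq2 with all 12 mice called H2-K1 lower as well (-0.56, adjusted p = 0.00626), so that it called 3 of the 10 genes, with Psmb9 and Nlrc5, against 18.0% of all genes. Psmb8 was not called, at 0.28 (SE 0.15, adjusted p = 0.192) with mouse 3 and 0.37 (SE 0.12, adjusted p = 0.0554) without it.

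**Figure D3:**
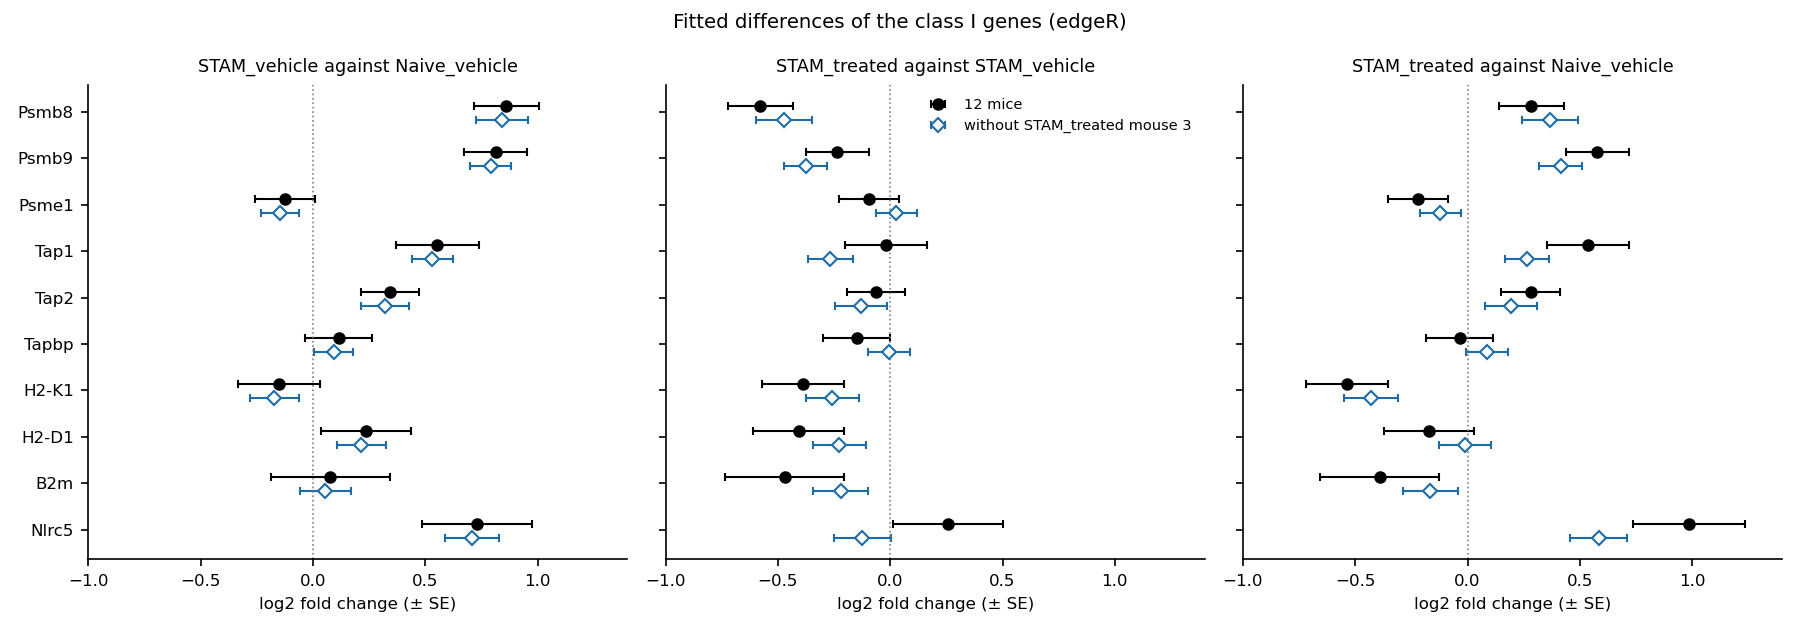
Log2 fold change with its SE for the 10 class I genes in the 3 comparisons, from edgeR with all 12 mice (black circles) and without STAM_treated mouse 3 (blue diamonds). Psmb8 and Psmb9 lie at 0.86 and 0.81 for STAM_vehicle against Naive_vehicle, and Nlrc5 moves from 0.26 to -0.12 for STAM_treated against STAM_vehicle when mouse 3 is left out.

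The inducible subunits Psmb8, Psmb9 and Psmb10 replace the constitutive catalytic subunits Psmb5, Psmb6 and Psmb7 when immunoproteasomes are built, so each was also set against its counterpart within the same mouse. Such a ratio does not depend on library size. The Psmb8 count was 22.03%, 17.5%, 17.7% and 19.1% of the Psmb5 count in Naive_vehicle, 27.6%, 34.8%, 35.02% and 32.3% in STAM_vehicle and 26.7%, 14.1%, 39.0% and 19.3% in STAM_treated mice. The Psmb9 count was 9.52%, 9.36%, 8.27% and 9.49% of the Psmb6 count in Naive_vehicle, 19.7%, 17.7%, 16.6% and 18.6% in STAM_vehicle and 12.5%, 10.3%, 29.1% and 11.7% in STAM_treated mice. The Psmb10 count was 26.4%, 23.3%, 19.4% and 23.9% of the Psmb7 count in Naive_vehicle, 27.1%, 36.6%, 40.8% and 33.1% in STAM_vehicle and 33.97%, 21.3%, 53.8% and 27.8% in STAM_treated mice. For all 3 ratios every STAM_vehicle mouse was above every naive mouse, and mouse 3 had the highest ratio of all 12 mice.

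Between STAM_vehicle and naive mice the log2 ratio differed by 0.76 for Psmb8 to Psmb5, by 0.99 for Psmb9 to Psmb6 and by 0.56 for Psmb10 to Psmb7. Each had a two-sided exact permutation p of 0.0286, the smallest that 4 against 4 mice can give, and an adjusted p of 0.0644 over the 9 ratio tests, which misses 0.05. Psmb10 itself was not called (log2 fold change 0.31, SE 0.16, adjusted p = 0.293), nor was Psmb5, Psmb6 or Psmb7 in any comparison with all 12 mice. Psmb7 was at -0.26 (SE 0.25, adjusted p = 0.565), so the ratio of Psmb10 to Psmb7 rests on both genes. Without mouse 3 Psmb7 was called lower (-0.29, SE 0.084, adjusted p = 0.0293), in a fit that called 22.3% of all genes. Psmb5 was then called higher in treated than in naive mice (0.34, SE 0.10, adjusted p = 0.0382), where 20.4% of all genes were called.

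Between STAM_treated and STAM_vehicle mice the differences were -0.48 (exact permutation p = 0.229), -0.32 (exact permutation p = 0.429) and -0.077 (exact permutation p = 0.857), in the same order. Without mouse 3 they were -0.74, -0.66 and -0.32, and the first 2 ratios no longer overlapped between treated and STAM_vehicle mice. In the edgeR fit without mouse 3, the denominators Psmb5, Psmb6 and Psmb7 had log2 fold changes of 0.26, 0.28 and 0.28, none called. In mouse 3 the constitutive subunits were low, at 22.9 CPM for Psmb5 against 52.8 to 72.9 in the other treated mice and at 21.8 for Psmb7 against 55.0 to 68.0. Between STAM_treated and naive mice the ratio of Psmb9 to Psmb6 was higher in every treated mouse (difference 0.66, exact permutation p = 0.0286), with an adjusted p of 0.0644 over the 9 tests, which misses 0.05. The ratio of Psmb8 to Psmb5 differed by 0.28 and that of Psmb10 to Psmb7 by 0.48, and both overlapped. Without mouse 3 the differences were 0.33 for Psmb9 to Psmb6, 0.026 for Psmb8 to Psmb5 and 0.24 for Psmb10 to Psmb7.

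**Figure D4:**
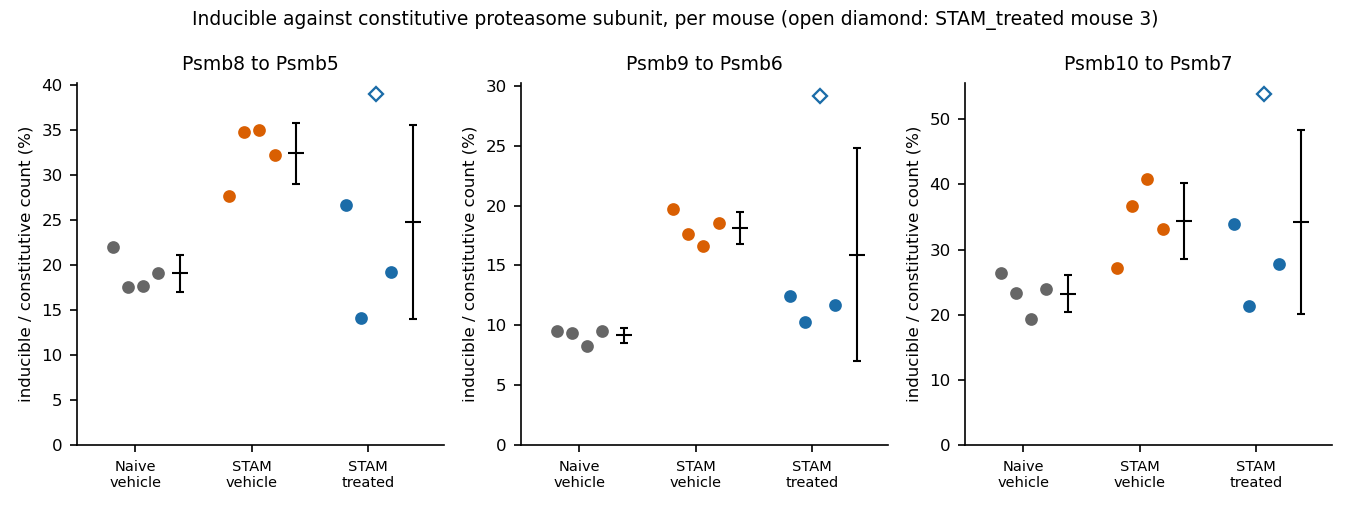
Count of each inducible proteasome subunit as a percentage of the count of its constitutive counterpart in the same mouse, by group, with the mean and SD of 4 mice and STAM_treated mouse 3 as an open diamond. All STAM_vehicle mice exceed all Naive_vehicle mice in each panel, and mouse 3 is highest at 39.0%, 29.1% and 53.8%.

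A list of 78 further genes of the pathway was examined by role, of which 74 passed the filter. Between STAM_vehicle and Naive_vehicle 8 were called higher and 1 lower, against 5.72% higher and 1.38% lower over all genes. The calls fell on 2 roles and a single transcription factor. Among the other heavy chains, 4 of 12 tested were called higher, with a median over the 12 of 0.54. H2-Q10, highest of the 12 in CPM, was the 1 with a lower fitted mean, at 1227 ± 110 CPM in Naive_vehicle and 917 ± 15.2 in STAM_vehicle mice. Its difference was -0.42 (SE 0.19, adjusted p = 0.216). It was called lower without mouse 3 (-0.44, adjusted p = 0.0146) and in DESeq2 with all 12 mice (adjusted p = 0.0397), which called 22.3% and 9.95% of all genes. H2-Q1 was at 5.70, 7.05, 5.84 and 5.06 CPM in Naive_vehicle and at 8.85, 11.8, 15.9 and 10.2 in STAM_vehicle mice, and rose by 0.98 (SE 0.21, adjusted p = 0.0153). H2-T22, a ligand of gamma delta T cells, rose by 0.56 (SE 0.12, adjusted p = 0.0140), H2-T10 by 1.01 (SE 0.21, adjusted p = 0.0123) and H2-Bl by 1.66 (SE 0.37, adjusted p = 0.0155). H2-K1, H2-D1 and these genes resemble each other in sequence and reads were counted only where they mapped to a single place, so their levels are uncertain to that extent.

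The receptors that bind class I molecules were the other role, with 4 of 7 called higher. They were the CD8 chains Cd8a (2.31, SE 0.41, adjusted p = 0.00482) and Cd8b1 (2.74, SE 0.49, adjusted p = 0.00493), the natural killer receptor chain Klrd1 (1.51, SE 0.42, adjusted p = 0.0443) and the inhibitory receptor Pirb (1.23, SE 0.27, adjusted p = 0.0151). Cd8a was low throughout, at 0.0872 to 0.255 CPM in Naive_vehicle, 0.503 to 1.34 in STAM_vehicle and 0.179 to 0.361 in STAM_treated mice. Nfyb, a subunit of the CCAAT-binding factor, was the gene called lower (-0.39, SE 0.10, adjusted p = 0.0349). None of the 16 transcription factors was called higher. The 11 other subunits of the 20S core had 0 calls and all had a lower fitted mean, with a median of -0.17. Of the interferons, Ifng had at most 7 counts in any mouse and Ifnb1 at most 1, so neither could be tested at this depth.

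Between STAM_treated and STAM_vehicle 1 of the 74 genes was called, against 0.351% of all genes. It was H2-Q1, which fell by 1.02 (SE 0.21, adjusted p = 0.0953) to 6.18, 7.44, 4.00 and 5.49 CPM, below every STAM_vehicle mouse. No gene of the list was called when Naive_vehicle mouse 1, 3 or 4, STAM_vehicle mouse 2, 3 or 4, or STAM_treated mouse 1 or 4 was left out. The adjusted p of H2-Q1 lies near the threshold of 0.1. Its difference was -0.87 without treated mouse 3 (SE 0.20, adjusted p = 0.0610), and DESeq2 (adjusted p = 0.00434) and limma-voom (adjusted p = 0.0183) also called it with all 12 mice. All 12 other heavy chains had a lower fitted mean in treated mice, with a median of -0.36, and 4 of the 12 were lower with no overlap, against 2.63% of all genes. Without mouse 3 the median was -0.56 and 5 of the 12 were called lower, in a fit that called 2.38% of all genes, namely H2-Q1, H2-T22, H2-Q7, H2-T23 and H2-T24, the last 3 of which are named after their values were seen. H2-T22 was at 63.5 ± 3.44 CPM in naive, 93.3 ± 11.01 in STAM_vehicle and 64.1 ± 4.95 in treated mice. Its difference between treated and STAM_vehicle mice was -0.54 with mouse 3 (SE 0.12, adjusted p = 0.120) and -0.48 without it (adjusted p = 0.0475). The class I receptors had a median of -0.72 with 0 of 7 called by edgeR. The CD8 chains Cd8a and Cd8b1 were at -1.49 (SE 0.38, adjusted p = 0.186) and -1.62 (SE 0.43, adjusted p = 0.205), and at -1.29 (adjusted p = 0.117) and -1.56 (adjusted p = 0.120) without mouse 3. DESeq2 with all 12 mice called 3 of the 7 lower, Cd8a (adjusted p = 0.0418), Cd8b1 (adjusted p = 0.0824) and the activating receptor Klrk1 (adjusted p = 0.0254). Klrk1, named after its values were seen, was at -0.98 (SE 0.26, adjusted p = 0.196) in edgeR and was called without mouse 3 (-1.05, SE 0.26, adjusted p = 0.0873).

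**Figure D5:**
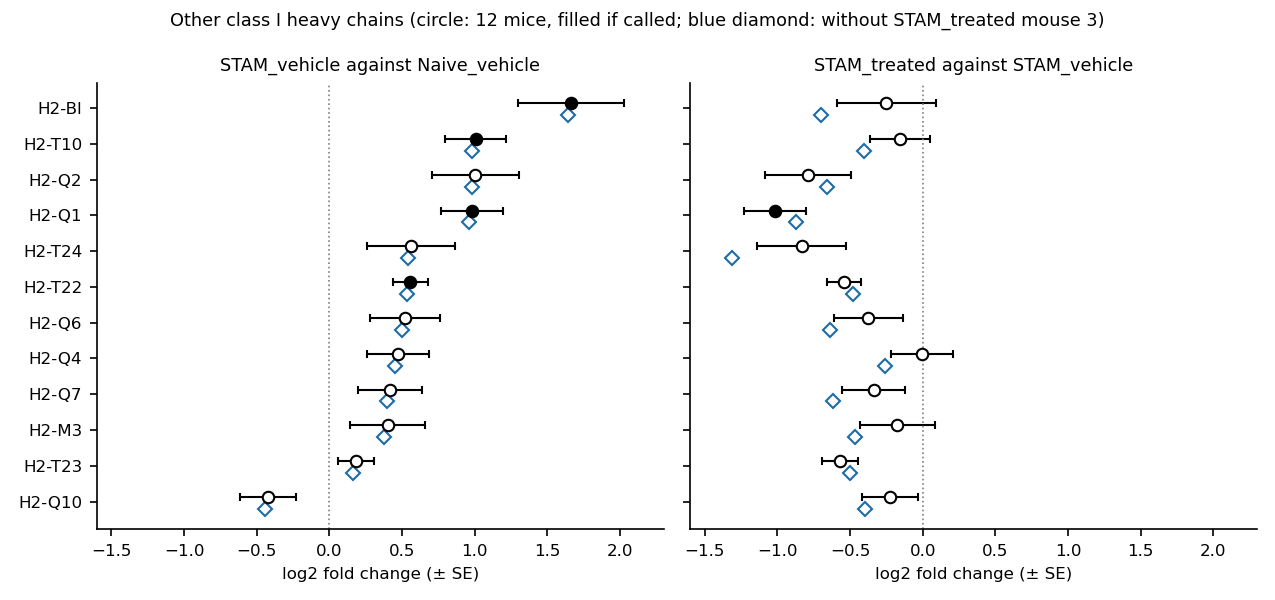
Log2 fold change with its SE of the 12 other class I heavy chains tested, for STAM_vehicle against Naive_vehicle and STAM_treated against STAM_vehicle, with all 12 mice (circles, filled if called) and without STAM_treated mouse 3 (diamonds). In the first panel 11 of 12 are above 0 and 4 are called, and in the second all 12 are below 0 and H2-Q1 is called.

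Between STAM_treated and naive mice 3 of the 74 genes were called higher and 4 lower, against 9.88% higher and 5.25% lower over all genes. Those higher were H2-T10 (0.85, SE 0.21, adjusted p = 0.0168), H2-Bl (1.41, SE 0.37, adjusted p = 0.0209) and Pirb (1.32, SE 0.27, adjusted p = 0.00653). Those lower were Nfyb (-0.36, SE 0.10, adjusted p = 0.0310) and 3 genes of proteins that are built like class I molecules. H2-Q10, a soluble class I molecule made by the liver, was at -0.65 (SE 0.19, adjusted p = 0.0370). Fcgrt, the neonatal Fc receptor, was at -0.65 (SE 0.16, adjusted p = 0.0159), and Hfe, which acts in iron sensing, at -0.59 (SE 0.15, adjusted p = 0.0217). All 7 were also called without mouse 3, at 0.58 for H2-T10, 0.94 for H2-Bl, 1.33 for Pirb, -0.40 for Nfyb, -0.84 for H2-Q10, -0.53 for Fcgrt and -0.45 for Hfe, with adjusted p from 0.000887 for H2-Q10 to 0.0368 for H2-Bl. H2-Q10 and Fcgrt were also lower in every STAM_vehicle than in every naive mouse, as were 12.2% of all genes. There Fcgrt was at -0.50 (SE 0.16, adjusted p = 0.0725), and at -0.52 (adjusted p = 0.00331) without mouse 3, where 22.3% of all genes were called. Hfe overlapped in that comparison (-0.13, SE 0.15, adjusted p = 0.656).

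Markers of some other cell types differed between the groups along with these genes. The summed CPM of 13 T cell markers, which include Cd8a and Cd8b1, was 4.03 to 9.94 in Naive_vehicle, 10.6 to 13.5 in STAM_vehicle and 4.32 to 7.06 in STAM_treated mice, with 3 of 13 called higher in STAM_vehicle against naive mice and 1 called lower after I-BET151. Over all genes 5.72% were called higher in the first of these comparisons and 0.256% lower in the second. The sum of 11 macrophage markers was 209 to 302 in Naive_vehicle, 352 to 670 in STAM_vehicle and 273 to 607 in STAM_treated mice, with 6 of 11 called higher in STAM_vehicle and 0 called after I-BET151. For 7 natural killer cell markers it was 1.38 to 1.98, 1.39 to 3.35 and 1.02 to 1.57, with Ncr1, Eomes and Gzma at 0 in some mice. Only 4 of the 7 were tested, and none was called in any comparison. All 6 hepatocyte markers had counts in every mouse, and their sum was 98770 to 115100 in Naive_vehicle and 48470 to 69510 in STAM_vehicle mice. It was 66100 to 80850 in 3 treated mice and 18400 in mouse 3. None of these 6 markers was called in any comparison. Of all genes, 12.2% were lower in every STAM_vehicle than in every naive mouse. The sum of 5 neutrophil markers was 2.96 to 4.96 in Naive_vehicle, 5.58 to 13.8 in STAM_vehicle and 4.34 to 11.2 in STAM_treated mice, with 1 of 5 called higher in STAM_vehicle and Ly6g at 0 in some mice. The sums for B cell, dendritic cell, endothelial, stellate cell and bile duct markers overlapped between Naive_vehicle and STAM_vehicle mice, with 0 calls in that comparison. Those of the 4 bile duct markers were 13.4 to 17.1 in STAM_vehicle and 11.8 to 13.1 in STAM_treated mice, without overlap. Taken singly, 2.63% of all genes were lower without overlap in that comparison, and 0 of the 4 markers were called. The part of these cells in the class I values was not tested.

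Across the 12 mice the 10 genes did not vary as a single block. The pairs that varied most alike in log2 CPM were Tap1 and Nlrc5 (Pearson r = 0.938) and H2-D1 and B2m (r = 0.929). H2-K1 and Nlrc5 varied in opposite directions (r = -0.854). Tap1 and Psmb9, which share the stretch between their RefSeq starts, had r = 0.849. These values share the mice, the libraries and the group differences, and mouse 3 bears on them. Over the 11 mice without it H2-D1 and B2m had r = 0.665, H2-K1 and Nlrc5 r = -0.667, H2-K1 and H2-D1 r = 0.231 instead of 0.752, and Psmb8 and Psmb9 r = 0.929 instead of 0.687.

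Among 13140 genes with a mean CPM of at least 1, the pattern most like the mean of the 10 genes over the 12 mice was that of Pira2 (r = 0.949), a receptor of the same family as Pirb, followed by H2-T22 (0.933), Creld2 (0.925), the chemokine Ccl5 (0.923) and the macrophage gene Mpeg1 (0.919). Without mouse 3 Pira2 again stood first (r = 0.952), with Thbs1, Lilra5, Oasl2 and Samhd1 behind it. Of the first 5 genes, the lowest r without mouse 3 was that of Creld2 (0.852).

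The lanes of the sequencer, read from the names of the deposited tables, did not pair evenly with the groups. The single pair of a STAM_vehicle and a naive mouse within a lane differed by 0.73 for Psmb8, 0.86 for Psmb9, 0.60 for Nlrc5, 0.23 for Tap1 and 0.21 for Tap2 on the log2 scale. The 3 pairs of a treated and a STAM_vehicle mouse within a lane differed by -0.080, -1.02 and -0.58 for Psmb8 and by -0.31, 0.086 and -0.58 for Psmb9, the second value of each being that of mouse 3. Several genes overlap others in the annotation, with 212 bases shared by Tap1 and Psmb9 on opposite strands and 149 by Tapbp and Zbtb22 on the same strand. The libraries were stranded, but the strand setting of the counting is not given in the sources used here, so reads from these stretches may not be told apart.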

How the data were processed

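The 12 libraries were made from total RNA with a stranded mRNA kit. The authors aligned reads with STAR 2.5.1b to mm10 and counted uniquely mapped reads per gene with HTSeq, as their methods and processing notes state, and deposited raw counts, 1 table per mouse, without normalization. The names of the tables point to featureCounts, and the annotation release and strand setting are not given in the sources used here. Of 47729 identifiers, 47310 matched GENCODE M21. Groups came from the sample titles.

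All 12 mice entered a single edgeR 4.0.16 fit in R 4.3.3 with TMM factors, filterByExpr (minimum count 10), the quasi-likelihood test and Benjamini-Hochberg adjustment over 16823 genes. The SE is the size of the log2 fold change divided by the square root of F. Proteasome count ratios were tested by exact permutation of the 8 mice concerned, two-sided, with 70 arrangements and adjustment over 9 tests. Correlations used log2 CPM with a prior count of 2. The fits were tested on simulated counts. Alternatives used limma 3.58.1 and DESeq2 1.42.0, and summaries used SciPy 1.17.1, pandas 2.3.3 and NumPy 2.4.6 in Python 3.11.15. Fits with a replicate block, the lane as a covariate, other filters and normalizations, 2 groups only and each mouse left out were run, and DESeq2 without STAM_treated replicate 3 was added after seeing the data. The mice deviated no more alike within a replicate number than between numbers, so numbers were not taken as pairs.

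The genes and pathway list were chosen with earlier results of these data known. Named were the 10 genes, each pathway gene called in at least 1 comparison, the subunits of the ratios, Ifng, Ifnb1, Brd2 and the 5 most alike genes. Within groups, every pair of mice differed by more than counting noise.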

Additional observations from a re-analysis of the deposited data

Results flagged for a closer look

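Of 87 sets of 4 mice tested for a single mouse far from the others, 2 stood out by Dixon's criterion, and chance alone gives about 1 in 20. H2-K1 was at 1234 CPM in Naive_vehicle mouse 3, with the other naive mice at 1128 to 1145. The log2 ratio of Psmb9 to Psmb6 was -3.60 in the same mouse, with the others at -3.42 to -3.39. STAM_treated mouse 3 gave 0 such flags.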

How the results depend on the processing

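Psmb8 and Psmb9 were called higher in STAM_vehicle than in naive mice in each fit that left out 1 mouse and in DESeq2, and were not called with the lane as a covariate. Of the 10 class I genes, that comparison called 2 as reported, 4 at an adjusted p of 0.1, 5 in a fit of the 2 groups only, 6 in limma-voom, 3 in DESeq2, 5 in DESeq2 without STAM_treated replicate 3, 0 with the lane and 2 to 5 with 1 mouse left out, the 5 being without STAM_treated replicate 3. Of the pathway list it called 9 as reported, 0 with the lane, 27 with 2 groups, 36 in limma-voom, 14 in DESeq2, 28 in DESeq2 without that mouse and 4 to 25 with 1 mouse left out. Over all genes these settings called 7.1% as reported, 12.2% at 0.1, 0.22% with the lane and 23.9% with 2 groups. They called 33.7% in limma-voom, 9.95% in DESeq2, 23.4% in DESeq2 without that mouse and 3.17% to 22.3% with 1 mouse left out. STAM_treated against STAM_vehicle called 0 class I genes as reported, 2 in limma-voom, 1 in DESeq2, 3 in DESeq2 without that mouse and 0 to 2 with 1 left out. Of the pathway list it called 1 as reported, 0 at an adjusted p of 0.05, with RLE factors, with the replicate block, with the lane and with 2 groups, 2 with upper-quartile factors and with no filter, 3 with at least 10 counts in every mouse, 14 in limma-voom, 7 in DESeq2, 17 in DESeq2 without that mouse and 0 to 9 with 1 left out. The shares over all genes were 0.351% as reported, 0.155% at 0.05, 0.327% with RLE factors, 0.0594% with the block and 0% with the lane. They were 0.048% with 2 groups, 0.339% with upper-quartile factors, 0.341% with no filter and 0.436% with 10 counts in every mouse. For limma-voom, DESeq2 and DESeq2 without that mouse they were 7.16%, 1.5% and 8.32%, and 0.0762% to 2.38% with 1 left out. STAM_treated against Naive_vehicle called 2 class I genes as reported, 4 at an adjusted p of 0.1, 0 with the lane and with 2 groups, 5 in limma-voom, 3 in DESeq2, 4 in DESeq2 without that mouse and 0 to 5 with 1 left out, the 0 being without Naive_vehicle replicate 3 and the 5 without STAM_treated replicate 2. Of the pathway list it called 7 as reported, 13 at 0.1, 4 with the replicate block, 0 with the lane, 1 with 2 groups, 21 in limma-voom, 11 in DESeq2, 18 in DESeq2 without that mouse and 2 to 15 with 1 left out. Over all genes that comparison called 15.1% as reported, 24.7% at 0.1, 9.35% with the block, 0.505% with the lane and 7.88% with 2 groups. For limma-voom, DESeq2 and DESeq2 without that mouse the shares were 29%, 18.0% and 21.3%, and 7.49% to 21.7% with 1 left out. The fits without 1 mouse test fewer samples and the lane leaves few degrees of freedom. For the other shifts the cause was not tested.

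The ratios that reached the smallest exact p did not with medians (0.87, 0.94 and 0.56 for STAM_vehicle against naive, 0.36 for Psmb9 to Psmb6 in treated against naive) or with the replicate block (0.76, 0.99, 0.56 and 0.66), where 4 pairs allow no p under 0.125. With 1 mouse left out no p under 0.0571 is possible. They then spanned 0.73 to 0.84, 0.94 to 1.03, 0.47 to 0.67 and 0.33 to 0.83, and Psmb10 to Psmb7 in treated against STAM_vehicle mice -0.32 to 0.12. Mean r of same-numbered mice was -0.0695, -0.0624 and -0.146 in the 3 comparisons.

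Differences near 0 changed sign. With the lane these were H2-K1 (0.057) and Psme1 (0.012) in STAM_vehicle against naive, Tap1 (0.074) and Tap2 (0.064) in treated against STAM_vehicle and Tapbp (0.059) in treated against naive mice. With upper-quartile factors they were Tap1 (0.028) and Tapbp (0.048), and with the filter of 10 counts in all mice Tap1 (0.0026) and Tapbp (5.02e-05). In limma-voom they were Nlrc5 (-0.043) and Tapbp (0.14), and in DESeq2 without STAM_treated replicate 3 Psme1 (0.030), Nlrc5 (-0.12) and Tapbp (0.096). With 1 mouse left out, treated against STAM_vehicle spanned -0.27 to 0.092 for Tap1, -0.13 to 0.027 for Tap2, -0.18 to 0.026 for Psme1 and -0.12 to 0.43 for Nlrc5, and Tapbp -0.13 to 0.087 against naive mice.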
